A study of Mus musculus with 42 samples.

Results

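The complement genes *C7*, *C6*, *C3*, *C4b*, *C1qa*, *C1qb*, *C1qc*, *Cfb* and *Serping1* were examined by their symbols, 9 of the 26653 genes of an expression table deposited for 8 tissues of wild-type and *Tug1*-knockout mice, of which the 7 with labelled samples were used. All 9 genes were found, so that 63 pairs of gene and tissue could be described. *Tug1* is a long noncoding RNA locus, and the comparison of the 2 genotypes in each tissue asks which genes differ in level when the locus is lost. RNA with poly(A) tails had been sequenced in 42 samples, of which 22 were wild-type and 20 knockout. There were 4 wild-type and 3 knockout samples of testes, 3 and 2 of prostate, and 3 and 3 each of liver, heart, spleen, eyes and cultured embryonic fibroblasts (MEFs). All animals were males of the strain Tug1_tm1.1Vlcg on a C57BL/6J background (N3-C57BL/6J, no Neo). The wild-type mice carried normal *Tug1* on both alleles, and in the homozygous knockout mice a lacZ reporter stood in place of *Tug1* on both. The MEFs were cultured cells at passage 2, and the other samples were whole, snap-frozen organs, which mix all cell types of the organ. The MEFs came from littermate embryos of crosses between heterozygous mice. No treatment is given, and the sources used here state neither the age of the mice behind the organs nor whether different organs came from the same animals.

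Complement is a set of blood and tissue proteins that mark microbes and cell debris and can pierce membranes. The classical pathway starts when C1q, built from the chains A, B and C, binds a target and activates the proteases C1r and C1s, which cut C4. The alternative pathway runs through factor B and factor D, all routes meet at the cleavage of C3, and the terminal pathway assembles C6, C7, C8 and C9 on the fragment C5b into the membrane attack complex. Hepatocytes make most of the circulating proteins, whereas C1q is made mainly by macrophages and dendritic cells, and adipocytes secrete factor D. C1 inhibitor, encoded by *Serping1*, inactivates C1r and C1s.

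The deposited table gives 1 value in FPKM (fragments counted per length of transcript and per depth of library) per gene, genotype and tissue, in which the authors had combined the replicates. Values of single mice and read counts are not in it, so depth is unknown, no standard deviation can be given, and whether a difference exceeds the spread between mice cannot be tested. Every comparison below therefore sets 2 pooled values side by side. The log2 ratio is log2((knockout + 0.1)/(wild-type + 0.1)), which understates differences of low genes, and a gene was counted in a tissue when the mean of both genotypes was at least 1 FPKM there. Of the 63 pairs 53 were counted, and a difference of more than 1.5 times is called past the limit. *Tug1* lay between 11.2 and 27.7 FPKM in wild-type tissues and between 0.00753 and 0.402 FPKM in knockout tissues. The lacZ cassette was at most 0.00894 FPKM in wild-type tissues and between 0.355 FPKM in liver and 54.3 FPKM in testes of the knockout. The marker lists followed the labels: in wild-type values the germ cell markers summed to 31084 FPKM in testes, the prostate epithelial markers to 25518 FPKM in prostate, the lens and retina markers to 8287 FPKM in eyes, the cardiomyocyte markers to 14636 FPKM in heart, the hepatocyte markers to 68997 FPKM in liver, the lymphocyte markers to 934 FPKM in spleen and the fibroblast markers to 3672 FPKM in MEFs. The median log2 ratio of all counted genes was lowest in testes, at -0.06, and highest in heart, at 0.03.

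The members fall into a few neighbourhoods of the genome (GRCm38, GENCODE vM21). *C6* (chr15:4727175-4814967, plus strand) and *C7* (chr15:4988762-5063740, minus strand) are separated by 173794 bp. *C1qb* (chr4:136880129-136886187), *C1qc* (chr4:136889804-136893065) and *C1qa* (chr4:136895917-136898803) lie on the minus strand within 18675 bp, with gaps of 3616 and 2851 bp. *C4b* (chr17:34728380-34743882), *Cfb* (chr17:34856374-34862518) and *C3* (chr17:57203970-57228136) are on the minus strand of chromosome 17, and *Serping1* (chr2:84765387-84775444) is on the minus strand of chromosome 2. *C4b* and *C4a* are near-identical copies 65209 bp apart. *Cfb* and *C2*, on the same strand, are separated by 85 bp and are listed with a shared locus. The split of reads within these pairs is therefore uncertain.

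Promoter sequence was matched for 5 of the 9 members. For *C7*, *C3* and *C1qb* the 250 bases before the RefSeq start held no annotated exon, and these are shown because they stand for the 3 tissue patterns described below, highest in testes, in liver and in spleen. They are given 5′ to 3′ on the strand of the gene, the minus strand in each case, at chr15:5063774-5064023 for *C7*, chr17:57228137-57228386 for *C3* and chr4:136886201-136886450 for *C1qb* (GRCm38.p6). Capitals mark matches to the motifs searched on both strands, which were a TATA box (TATAAA, in 12.4% of 32851 promoter windows of the same length), a CCAAT box (CCAAT, 33.8%), a STAT site (TTCNNNGAA, 7.02%), a PU.1 site (GAGGAAGT, 2.44%) and a C/EBP site (TTGCNNAA, 9.56%).
C7: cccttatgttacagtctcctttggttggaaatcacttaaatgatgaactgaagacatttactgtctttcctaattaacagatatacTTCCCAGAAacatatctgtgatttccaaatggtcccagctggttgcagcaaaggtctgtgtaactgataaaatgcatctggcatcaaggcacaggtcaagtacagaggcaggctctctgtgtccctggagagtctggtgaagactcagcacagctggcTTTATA
C3: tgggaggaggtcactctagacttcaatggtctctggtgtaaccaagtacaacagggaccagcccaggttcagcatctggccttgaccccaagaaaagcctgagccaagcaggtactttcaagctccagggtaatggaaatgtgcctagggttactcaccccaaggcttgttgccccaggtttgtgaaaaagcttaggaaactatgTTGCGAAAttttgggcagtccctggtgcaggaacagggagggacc
C1qb: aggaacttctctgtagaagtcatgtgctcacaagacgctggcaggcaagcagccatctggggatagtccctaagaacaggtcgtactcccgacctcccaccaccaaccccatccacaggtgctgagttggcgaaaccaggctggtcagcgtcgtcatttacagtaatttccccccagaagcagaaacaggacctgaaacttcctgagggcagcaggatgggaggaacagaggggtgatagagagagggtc
The *C7* window held the STAT letters 164 to 156 bases before the start and, on the opposite strand, the TATA letters 6 to 1 bases before it. The *C3* window held the C/EBP letters 45 to 38 bases before the start, and the *C1qb* window held none of the 5 motifs. The matches do not overlap one another, and they describe letters in the window, not sites bound by a factor.

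*C7*, the terminal component that anchors the forming attack complex in a membrane, was highest in testes. In wild-type mice it was at 24.4 FPKM in testes, 8.62 FPKM in heart, 6.76 FPKM in prostate, 1.17 FPKM in liver, 0.872 FPKM in eyes, 0.452 FPKM in spleen and 0 in MEFs. In knockout mice it was at 33.1 FPKM in testes, 9.39 FPKM in prostate, 8.84 FPKM in heart, 1.11 FPKM in eyes, 1.03 FPKM in liver, 0.319 FPKM in spleen and 0 in MEFs. Testes thus stood 2.83 times above the next tissue in wild-type and 3.53 times in knockout values, while heart and prostate, and liver and eyes, stood in opposite order in the 2 genotypes. After rescaling each value to a common sum without mitochondrial genes and failed estimates, eyes stood above liver in both genotypes. The largest ratios of *C7* were in prostate, at 1.38 times (log2 ratio 0.47), and in testes, at 1.36 times (log2 ratio 0.44), both higher in the knockout and both short of the limit. In heart the 2 values were 1.03 times apart. Beside *C7* in testes, all 5 Leydig cell markers had log2 ratios above 0, with a median of 0.40, none past the limit, and a sum of 949 FPKM in wild-type and 1366 FPKM in knockout, and the 4 germ cell markers had a median of -0.19 and a sum of 31084 and 26574 FPKM. The part of these markers in the *C7* values was not tested.

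*C6*, which joins C7 in the same complex, did not share this pattern. It was a liver transcript, at 148 FPKM in wild-type and 147 FPKM in knockout liver, followed by spleen at 11.9 and 14.2 FPKM and testes at 1.19 and 1.31 FPKM. In prostate, eyes, heart and MEFs it was at most 0.293 FPKM in either genotype, and in MEFs it was listed at 0. Its log2 ratio was -0.01 in liver, 0.25 in spleen and 0.13 in testes. Over the 14 values of 7 tissues and 2 genotypes, on the log2(FPKM + 0.1) scale, the Pearson correlation between *C7* and *C6* was -0.03, whereas that between *C6* and *Cfb* was 0.92. These 14 values come in 7 pairs that share a tissue, and the correlations describe the tissue patterns without a test.

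**Figure D1:**
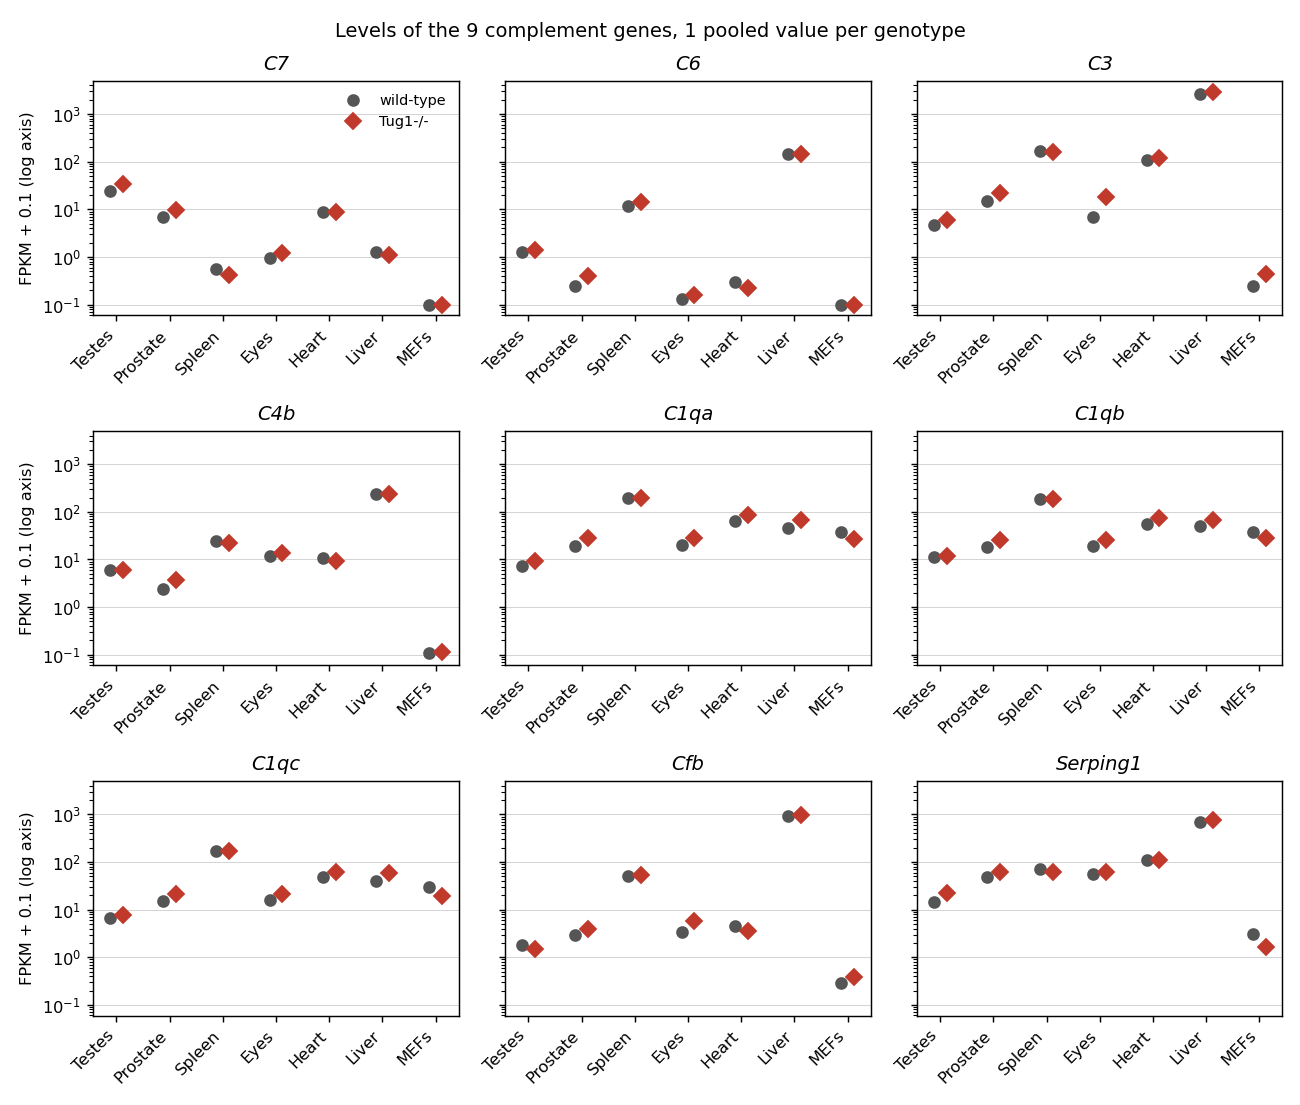
Levels of the 9 complement genes in FPKM + 0.1 on a log axis for the 7 tissues, with grey circles for the wild-type and red diamonds for the knockout value, each a single value in which the authors combined the replicates. *C7* is highest in testes, the 3 C1q chains in spleen, and the other 5 genes in liver, in both genotypes.

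The liver was the tissue with the highest level of 5 members in both genotypes. *C3*, the protein at which all pathways meet, was at 2683 FPKM in wild-type and 2952 FPKM in knockout liver. *Cfb*, which supplies the protease of the alternative pathway, was at 931 and 976 FPKM. *Serping1* was at 707 and 747 FPKM, and *C4b*, whose product is cut by the C1 complex, at 233 and 235 FPKM. Of these 4 genes *C3* had the largest ratio in liver, at 1.10 times, and all were short of the limit there. The 9 hepatocyte markers had a median log2 ratio of 0.15 there, with none past the limit. Outside liver their next tissue was spleen for *C3*, *Cfb* and *C4b* and heart for *Serping1*. *C3* in wild-type liver stood 16.3 times above spleen, *Cfb* 18.8 times and *C4b* 9.68 times, and *Serping1* 6.54 times above heart. Rescaling without mitochondrial genes and failed estimates lowered these distances to 7.64, 8.79, 4.52 and 3.87 times and left liver in the lead. *C3* was correlated with *Serping1* (r = 0.95), *Cfb* (r = 0.93) and *C4b* (r = 0.93) over the 14 values, and less with *C1qa* (r = 0.54).

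The 3 C1q chains followed each other closely and were highest in spleen. In wild-type spleen *C1qa* was at 199 FPKM, *C1qb* at 186 FPKM and *C1qc* at 168 FPKM, and in knockout spleen they were at 198, 188 and 167 FPKM. Heart came next, at 63.2, 55.4 and 47.5 FPKM in wild-type and 85.2, 74.9 and 62.2 FPKM in knockout, and testes had the lowest levels, between 6.48 and 11.9 FPKM over both genotypes. Across the 14 values *C1qa* had a correlation of 0.998 with *C1qc* and 0.992 with *C1qb*. The ratio of *C1qb* to *C1qa* was between 0.876 and 1.07 outside testes, but in testes it was 1.51 in wild-type and 1.29 in knockout values.

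All 3 chains were higher in the knockout in prostate, eyes, heart and liver, lower in MEFs, and level in spleen, with smaller and less even ratios in testes. In prostate *C1qa* was at 19.0 FPKM in wild-type and 27.8 FPKM in knockout, *C1qb* at 17.8 and 25.8 FPKM, and *C1qc* at 14.8 and 21.4 FPKM, which is 1.44 to 1.46 times higher. In liver the values were 46.0 and 66.7 FPKM for *C1qa*, 49.2 and 66.7 FPKM for *C1qb*, and 39.8 and 57.4 FPKM for *C1qc*, or 1.36 to 1.45 times higher. The chains were 1.33 to 1.37 times higher in eyes, where *C1qa* was at 20.1 and 27.6 FPKM, and 1.31 to 1.35 times higher in heart. In MEFs they ran the other way: *C1qa* was at 37.3 FPKM in wild-type and 26.7 FPKM in knockout cells, *C1qb* at 37.4 and 27.6 FPKM, and *C1qc* at 29.2 and 19.5 FPKM, so that the wild-type value was 1.36 to 1.49 times the knockout value. In spleen the log2 ratios of the chains were between -0.01 and 0.02, and in testes between 0.11 and 0.33.

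None of these C1q differences passed 1.5 times. With a lower limit of 0.32 on the log2 scale, all 3 chains were past it in prostate, eyes, heart and liver, where 5.89%, 6.62%, 3.51% and 8.25% of all counted genes were higher by that much, and in MEFs, where 7.5% were lower by that much. The 3 chains are neighbours in the genome and subunits of 1 protein, and they do not count as 3 independent observations. After rescaling all listed values to a common sum, the chains passed 1.5 times in prostate (log2 ratios of 0.60 to 0.61) and in liver (0.60 to 0.69). With mitochondrial genes and failed estimates left out of that sum they still passed it in prostate, but in liver *C1qa* alone did, at 0.59. Such rescaling raises the ratios of all genes of these tissues together. The knockout sum of all listed values was 0.957 times the wild-type sum in prostate and 0.897 times in liver. The share of all genes past the limit after rescaling was not counted, so passing it there is not particular to C1q.

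In bulk RNA fewer cells of a type and less RNA per cell cannot be told apart, and macrophage markers are therefore given beside C1q. In prostate 8 of the 13 markers were counted, 3 of them past the limit and higher, with a median log2 ratio of 0.48 and a summed level of 93.9 FPKM in wild-type and 122 FPKM in knockout; *Marco* and *Clec4f* were under 0.1 FPKM in both genotypes. In liver 12 were counted, 3 of them past the limit and higher, with a median of 0.45 and sums of 246 and 360 FPKM. Eyes had a median of 0.26 over 9 markers and sums of 164 and 218 FPKM, with *Marco* and *Clec4f* again under 0.1 FPKM, and heart a median of 0.14 over 11 markers and sums of 313 and 345 FPKM. In spleen, where C1q was level, the median was 0.01 over 12 markers and the sums were 1624 and 1739 FPKM. In eyes, heart and spleen *Cd163* alone was past the limit, and it was higher in the knockout. It was at 1.07 and 2.39 FPKM in eyes, 6.78 and 11.3 FPKM in heart, and 12.7 and 20.4 FPKM in spleen. In MEFs the median over 10 markers was -0.32, but the sum was higher in the knockout, at 101 and 139 FPKM, with 2 markers past the limit in each direction. *Lyz2* alone made up 54.4 and 95.0 FPKM of the sums in MEFs. It also made up 1108 and 1223 FPKM in spleen, 241 and 262 FPKM in heart, and 130 and 178 FPKM in eyes. In liver it was at 74.7 and 130 FPKM, and in prostate at 45.9 and 68.5 FPKM. *Marco*, a scavenger receptor, was at 0.00671 FPKM in wild-type and 6.41 FPKM in knockout MEFs, and at 2.63 and 18.4 FPKM in liver. In MEFs *Cd163*, *Clec4f* and *Timd4* were under 0.1 FPKM in both genotypes. In testes the median was 0.34 over 7 markers, while the sum was lower in the knockout, at 641 and 580 FPKM, of which *Aif1* alone made up 608 and 537 FPKM. Of all counted genes, 2.4% in prostate and 2.5% in liver were past the limit and higher. In eyes, heart and spleen these shares were 2.64%, 0.843% and 4.91%. In MEFs 0.975% were past it and higher and 2.2% lower. The part of macrophages in the C1q values was not tested.

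**Figure D2:**
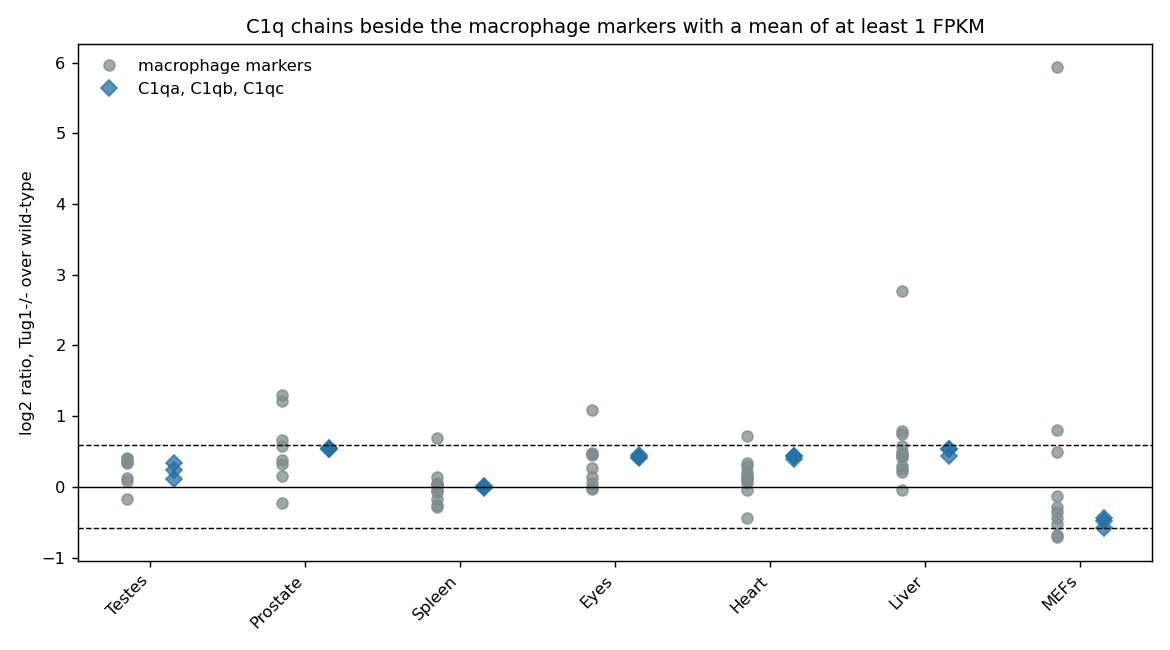
Log2 ratio of knockout over wild-type, on the vertical axis, for the 3 C1q chains (blue diamonds) and for the macrophage markers with a mean of at least 1 FPKM (grey circles) in each of 7 tissues, with dashed lines at 1.5 times in either direction. The C1q points lie above 0 in prostate, eyes, heart and liver, near 0 in spleen and below 0 in MEFs, while the marker points spread more widely; the highest point in liver and in MEFs is *Marco*.

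In all, 5 of the 53 counted pairs were past the limit, 4 of them higher and 1 lower in the knockout, and 38 of the 53 had a log2 ratio above 0. Of all 90197 counted pairs of gene and tissue, 2.19% were past the limit and higher, 1.28% past it and lower, and 45.2% had a log2 ratio above 0. The higher pairs were *C3* and *Cfb* in eyes, *C4b* in prostate and *Serping1* in testes, and the lower pair was *Serping1* in MEFs. Just inside the limit lay *C1qc* in MEFs (1.49 times), *C1qa* in prostate (1.46 times) and *C1qb* in prostate (1.45 times), and just outside it *Serping1* in testes (1.52 times), *C4b* in prostate (1.53 times) and *Cfb* in eyes (1.70 times).

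*C3* in eyes had the largest ratio of any counted pair. It was at 6.91 FPKM in wild-type and 17.7 FPKM in knockout eyes, 2.54 times higher (log2 ratio 1.34). *Cfb* in eyes was at 3.32 and 5.72 FPKM. All 7 counted members were higher in knockout eyes, with a median log2 ratio of 0.43 beside -0.02 for all genes; 2 of the 7 were past the limit, where 2.64% of all counted genes were higher and 0.86% lower by that much. *Serping1* in eyes was nearly level, at 56.9 and 60.3 FPKM, and *C4b* was at 11.8 and 13.9 FPKM. Adipocyte markers differed in the same direction, and all 4 counted of 5 were past the limit and higher in knockout eyes, with a summed level of 90.3 FPKM in wild-type and 286 FPKM in knockout, led by *Fabp4* at 76.2 and 243 FPKM. The 3 counted acute phase genes of 8 were also past the limit and higher, with sums of 8.31 and 29.5 FPKM. Of the 10 counted interferon response genes only 3 had log2 ratios above 0, with a median of -0.13 and none past the limit. The part of these cells and genes in the *C3* and *Cfb* values was not tested.

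In prostate all 8 counted members were higher in the knockout, between 1.27 and 1.53 times, with a median log2 ratio of 0.51 beside -0.04 for all genes. *C4b*, at 2.33 FPKM in wild-type and 3.62 FPKM in knockout, was the only one past the limit, where 2.4% of all counted genes were higher and 0.682% lower by that much. With a pseudocount of 1 FPKM its log2 ratio was 0.47, short of the limit. *C3* was at 15.2 and 21.5 FPKM, *Cfb* at 2.85 and 3.80 FPKM, and *Serping1* at 49.3 and 62.8 FPKM. *C6*, at 0.148 and 0.293 FPKM, was too low to be counted. The 4 counted adipocyte markers were past the limit and higher here too, with sums of 42.9 and 137 FPKM, as were the 3 counted acute phase genes, with sums of 19.4 and 44.6 FPKM. Of the 8 counted interferon response genes 6 had log2 ratios above 0, with a median of 0.36 and 2 past the limit. The knockout value of prostate combines 2 samples. The part of these genes in the values of the members was not tested.

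In testes 7 of the 9 members were higher in the knockout, with a median log2 ratio of 0.24 beside -0.06 for all genes. *Serping1* was at 14.3 FPKM in wild-type and 21.9 FPKM in knockout testes, 1.52 times higher (log2 ratio 0.61), where 1.17% of all counted genes were past the limit and higher and 0.753% lower. A pseudocount of 1 FPKM brought it to 0.58, just under the limit. *C3* was at 4.68 and 5.87 FPKM, *C4b* was level at 5.87 and 5.86 FPKM, and *Cfb* was lower in the knockout, at 1.72 and 1.42 FPKM. All 6 counted of 7 fibroblast markers had log2 ratios above 0 in testes, with a median of 0.20 and sums of 34.9 and 41.9 FPKM, and *Pdgfra* alone was past the limit, at 1.96 and 3.74 FPKM. Of the 2 counted acute phase genes of 8, *Lcn2* was past the limit and higher, at 168 and 368 FPKM, and *Saa1* was at 2.57 and 2.08 FPKM. The part of these genes in the *Serping1* value was not tested.

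In heart, liver and spleen no member was past the limit. The limit was passed in heart by 0.843% of all counted genes upwards and 1.44% downwards, in liver by 2.5% and 2.22%, and in spleen by 4.91% and 1.1%. The members' median log2 ratio was 0.09 in heart, 0.08 in liver and -0.01 in spleen. In heart *C3* was at 108 FPKM in wild-type and 120.0 FPKM in knockout, *Serping1* at 108 and 111 FPKM, *C4b* at 10.4 and 9.11 FPKM, and *Cfb*, 1.29 times lower, at 4.47 and 3.43 FPKM. In spleen *C3* was at 164 and 156 FPKM, *Serping1* at 70.9 and 61.8 FPKM, *Cfb* at 49.5 and 53.4 FPKM, and *C4b* at 24.1 and 21.8 FPKM. The 2 counted acute phase genes of 8 were past the limit and higher in spleen, with sums of 23.3 and 51.4 FPKM. In heart 2 of the 3 counted were past the limit and lower, with sums of 26.3 and 15.3 FPKM. In liver 2 of the 8 counted were past it and higher, with a median of 0.09. The part of these genes in the values of the members was not tested.

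MEFs expressed few of the members. *C7* and *C6* were listed at 0 in both genotypes, *C4b* was at 0.0102 and 0.0136 FPKM, *C3* at 0.142 and 0.335 FPKM, and *Cfb* at 0.195 and 0.277 FPKM. The 4 counted members, C1q and *Serping1*, were all lower in knockout cells, with a median log2 ratio of -0.53 beside a median of all genes that was level to 2 decimals. *Serping1* was at 3.01 FPKM in wild-type and 1.53 FPKM in knockout cells (log2 ratio -0.93), the lowest ratio of any counted pair. In MEFs 2.2% of all counted genes were past the limit and lower and 0.975% higher. All 7 fibroblast markers had log2 ratios below 0, with a median of -0.31, 1 of them past the limit, and sums of 3672 and 3264 FPKM. Other lists ran the other way. All 8 counted interferon response genes of 11 had log2 ratios above 0, with a median of 0.42 and sums of 23.9 and 34.7 FPKM. Of these, 2 were past the limit. The 1 counted acute phase gene of 8 was past the limit and higher, at a log2 ratio of 2.62. The part of these markers and genes in the *Serping1* value was not tested.

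**Figure D3:**
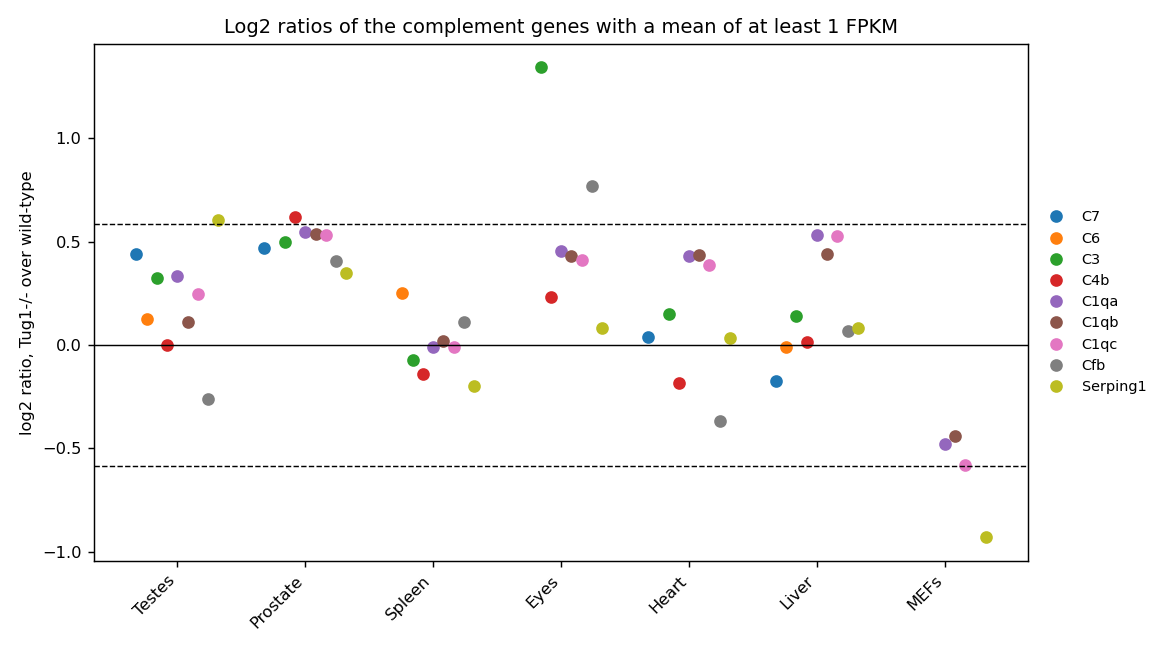
Log2 ratio of knockout over wild-type, on the vertical axis, for each of the 9 complement genes (colours) in the tissues where its mean was at least 1 FPKM, with dashed lines at 1.5 times in either direction. The points of prostate and eyes all lie above 0, those of MEFs all below 0, and *C3* in eyes stands highest at 1.34.

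Of 43 other complement genes listed, 42 were found, and 138 pairs of gene and tissue were counted, of which 16 were past the limit and higher and 4 lower in the knockout, where the shares over all genes were 2.19% and 1.28%. Their median log2 ratio was 0.24 in prostate, 0.20 in eyes and between -0.07 and 0.08 in the other tissues. The gene with the largest ratio was *Cfd*, which encodes factor D, also called adipsin. It was at 20.6 FPKM in wild-type and 118 FPKM in knockout eyes, 5.68 times higher, and at 26.4 and 126 FPKM in prostate, 4.76 times higher. In heart *Cfd* ran the other way, at 86.5 and 48.6 FPKM, and so did 3 of the 4 counted adipocyte markers, which were past the limit and lower there. The remaining marker, *Fabp4*, was nearly level in heart, at 1392 and 1311 FPKM. The part of adipocytes in the *Cfd* values was not tested.

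Among proteins of the classical pathway, the protease gene *C1s* was at 2.20 FPKM in wild-type and 3.71 FPKM in knockout testes, 1.66 times higher, and *C4a* was at 14.2 and 21.5 FPKM in liver, 1.51 times higher. The highest level in this role was that of the protease gene *C1rb* in prostate, at 957 and 910 FPKM. In the lectin pathway, which recognises sugars on microbes, *Fcna*, a ficolin gene, was higher in the knockout in eyes (0.894 and 2.74 FPKM) and prostate (4.71 and 7.45 FPKM), and *Fcnb* in spleen (1.95 and 6.03 FPKM). The highest level in this role was that of *Mbl2*, a mannose-binding lectin gene, in liver, at 557 and 615 FPKM.

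Properdin, encoded by *Cfp*, stabilises the convertase of the alternative pathway. *Cfp* was 1.53 times higher in knockout prostate (4.27 and 6.57 FPKM) and 1.60 times higher in knockout liver (15.0 and 24.2 FPKM). Among the other genes in this role, the highest wild-type level was that of *Cfp* in spleen, at 119 FPKM in each genotype. The highest knockout level was that of *Cfd* in prostate, at 126 FPKM. *Itgb2*, the shared chain of the complement receptor integrins of leukocytes, was 1.69 times higher in knockout liver, at 3.35 and 5.75 FPKM. Among the genes listed here in the receptor role, *C1qbp* had the highest level. It led in liver in wild-type values (106 FPKM, and 104 FPKM in the knockout) and in heart in knockout values (98.8 FPKM in wild-type and 111 FPKM). No other gene of the terminal pathway was past the limit in any tissue where it was counted, and the most abundant of them, *C8g*, was at 707 and 632 FPKM in liver.

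Among the inhibitors, *Clu*, the gene of clusterin, was 2.93 times higher in knockout prostate, at 30.6 and 89.7 FPKM, and lower in knockout MEFs, at 7.15 and 3.83 FPKM. *Cd55*, whose product breaks up convertases, was also lower in knockout MEFs, at 2.48 and 1.31 FPKM. *Cd59a*, which encodes a membrane inhibitor of the attack complex, was 1.63 times higher in knockout spleen. The highest level in this role was that of *Vtn*, the vitronectin gene, in liver, at 2071 and 2161 FPKM.

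**Figure D4:**
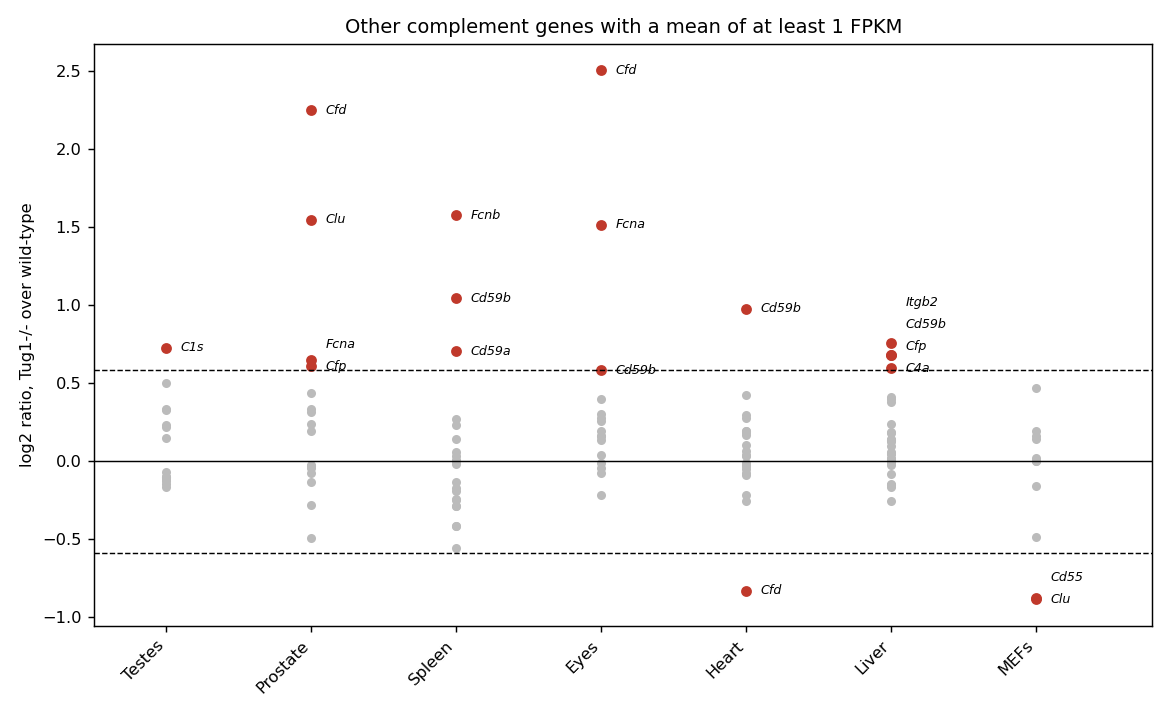
Log2 ratio of knockout over wild-type, on the vertical axis, for the other complement genes with a mean of at least 1 FPKM in each of 7 tissues, with dashed lines at 1.5 times in either direction. Genes past the limit are red and named, with names spread out where points overlap, and 1 listed gene is not plotted; *Cfd* stands highest, at 5.68 times in eyes and 4.76 times in prostate.

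The genes whose levels ran most like those of a member over the 14 values were sought among 19912 genes of at least 1 FPKM in some value. For *C7* they were *Kif16b* (r = 0.97), *Lyrm9* (0.96), *Gm13305* (0.95), *Pick1* (0.95) and *Wdr13* (0.95), and all but *Kif16b* were, like *C7*, highest in wild-type testes. For *C3* they were *Lrg1* (0.97), *Sepp1* (0.97), *Hsd11b1* (0.97), *Gpr97* (0.97) and *Rarres2* (0.97), all highest in liver. For *C1qa* they were *C1qc* and *C1qb*, followed by *Oas1a* (0.99), *Serpinb9* (0.98) and *Tyrobp* (0.98), all highest in spleen. These correlations mostly describe which tissue is highest, since the tissues differ far more than the genotypes.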

How the data were processed

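The submitters' processing notes name CASAVA 1.8.2, TopHat2, Cuffdiff and the build mm10, and libraries came from a TruSeq v2 kit that does not keep the strand. The methods of the study describe another route, from read counts, for its own calls. The deposited table lists 26653 genes in 8 tissues with 1 FPKM value per genotype, in which the authors combined the replicates; its header does not name the unit, which was taken from the Cuffdiff layout. The fold change, test statistic, p-value, q-value and significance call of the authors are also in the table and were not used. The other 2 value groups, from a tissue with no labelled sample, were not analysed here.

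Log2 ratios were computed as log2((knockout + 0.1)/(wild-type + 0.1)) on the values as deposited. A gene counted with a mean of at least 1 FPKM in a tissue and no failed estimate, and more than 1.5 times was past the limit. No test was made, since the table holds 1 value per group; its depth is unknown.

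The members, the 43 other complement genes and the marker lists were chosen with earlier results of these data known. All members were named in every tissue; of the other complement genes, the 3 with the largest ratio per tissue and direction and the highest level per role, except that 1 of them is not reported here and enters the counts only; and, for *C7*, *C3* and *C1qa*, the 5 genes with the highest Pearson correlation. Also named were *C4a* in liver and *Cfp* in prostate, past the limit but not among the 3 largest ratios there. Gene positions come from GENCODE vM21 and promoter sequences from RefSeq (GRCm38.p6). Alternatives were other pseudocounts, minimum levels, limits and scalings. The calls past the limit and the correlations were checked with differences and a pattern planted in the wild-type values. The other steps were not checked in this way. Software was Python 3.11.15, numpy 2.4.6, pandas 2.3.3 and matplotlib 3.10.9.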

Additional observations from a re-analysis of the deposited data

How the results depend on the processing

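The number of pairs of member and tissue past the limit and higher in the knockout, 4 as reported, was 2 with a pseudocount of 1 FPKM, 2 with a mean of at least 5 FPKM, 1 with a limit of 2 times and 22 with a limit of 0.32 on the log2 scale. It was 10 after rescaling the listed values to a common sum, and 8 after rescaling without mitochondrial genes and failed estimates, an alternative chosen after seeing the data. Rescaling shifts all genes of a tissue together, and in liver the knockout sum of the listed values was 0.897 times the wild-type sum. The number past the limit and lower, 1 as reported, was 0 with a mean of at least 5 FPKM, 0 with a limit of 2 times and 5 with a limit of 0.32 on the log2 scale. The 20 pairs of other complement genes past the limit became 37 without a minimum level, 12 with at least 5 FPKM, 6 at 2 times and 38 at 0.32 on the log2 scale. Shares of all genes under these settings were not counted, apart from those given above for some tissues at 0.32. The changed numbers are therefore not a result about these genes. Of the log2 ratios of single members under the other pseudocounts and scalings, 238 kept their direction and side of the limit, 14 with both values inside the limit had the other sign, 11 came to pass the limit and 2 no longer passed it. No paired analysis was possible because values of single samples are not in the table, and for the same reason no replicate could be left out. Depth and the spread between mice, which limit every comparison here, are unknown.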

Other observations

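*Cd59b*, which encodes a membrane inhibitor of the attack complex and is a close copy of *Cd59a*, had a higher value in the knockout in all 7 tissues, a pattern noticed after the values were seen. It was at 6.40 FPKM in wild-type and 12.7 FPKM in knockout heart, at 3.06 and 6.43 FPKM in spleen, at 13.2 and 21.3 FPKM in liver, at 3.38 and 5.12 FPKM in eyes, at 3.46 and 4.40 FPKM in prostate, and at 21.5 and 25.3 FPKM in testes. In MEFs it was at 0.623 and 1.33 FPKM, too low on average to be counted. The limit of 1.5 times was passed in heart, spleen, liver and eyes, in eyes barely. In these tissues 0.843%, 4.91%, 2.5% and 2.64% of all counted genes were higher by that much. How many of all genes were higher in all 7 tissues was not counted, so how unusual the pattern is cannot be said. Its copy *Cd59a* had log2 ratios between -0.16 in MEFs and 0.70 in spleen, and the assignment of reads between the copies is uncertain. No test of these differences could be made.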
